A study of Mus musculus with 6 samples.

Results

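The genes described here belong to 4 families of signals that pass between neighbouring cells: transforming growth factor beta (TGF-beta), bone morphogenetic protein (BMP) and activin, Wnt, and Notch. They were taken from the deposited gene table as the rows whose symbols begin with the family names of the ligands, receptors, inhibitors and transcriptional mediators. This gave 57 of the table's 6467 genes, of 144 mouse RefSeq genes whose symbols begin the same way. The other matching genes lie outside the table and were not analysed here. One of the 57, Dkkl1, is named for its likeness to the Dickkopf Wnt inhibitors, is known in mice mainly as a sperm acrosomal protein, and is kept apart in the counts by role.

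TGF-beta is secreted in a latent form and, once released, acts through a pair of serine/threonine kinase receptors that phosphorylate SMAD proteins. In CD8+ T cells it is known as a brake on cytotoxic function and as a signal for tissue residency, and in tumours it also drives fibroblast activation. BMPs and activins use related receptors and SMADs, Wnt ligands act through Frizzled receptors, and Notch receptors are cleaved when they meet Delta-like or Jagged ligands on an adjacent cell. Many of these ligands and secreted inhibitors are products of fibroblasts, pericytes and endothelium, while TGF-beta1, its receptors, the SMAD regulators and Notch1 and Notch2 are well known in T cells.

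The RNA came from CD8+ T cells sorted out of tumours that the mouse colon carcinoma line MC38 had formed on wild-type C57/B6J mice. The 6 libraries form 2 groups of 3, PBS and αPD-1-IL-15-R; the study's title describes concealed IL-15 directed by anti-PD-1. Dosing was intraperitoneal, 30 µg on each of days 14 and 17, with cell isolation 48 hours past the final dose. No group here received anti-PD-1 or IL-15 alone, the age and sex of the mice are not given in the labels, and nothing says whether a library came from 1 mouse or a pool, so p-values measure only the spread between these libraries, which may be partly technical.

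The table is the authors' selection of genes with a q-value under 0.05, 37.9% of the 17077 genes they tested, so every member had already passed their test. Its genes held between 8484736 and 9403710 reads per library. Normalised reads below are the deposited estimated counts divided by the authors' size factors, and TPM (the deposited level per transcript length) is used to compare genes. Changes are log2 ratios of treated over PBS from an edgeR fit of the whole table, with p-values adjusted over the 17077 genes, and "rose" and "fell" are kept for genes under 0.05 in that fit. In bulk RNA, fewer cells of a type and less RNA per cell cannot be told apart.

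The libraries differed within their groups. Treated library 1 stood apart from treated libraries 2 and 3 in fibroblast and macrophage markers, and less so in endothelial markers. The summed TPM of 10 fibroblast markers other than Thy1, which mouse T cells also express, was 235 in treated library 1 against 23.9 and 32.9 in treated libraries 2 and 3, and between 744.0 and 1412 in PBS. For 12 macrophage markers the sum was 1235 against 385 and 398, with 3416 to 4707 in PBS, and for 9 endothelial markers it was 5.07 against 2.87 and 4.04, with 14.6 to 24.5 in PBS. No gene of these 3 lists was at 0 in every treated library, and the fibroblast marker Lum was at 0 in treated library 3. For 6 dendritic cell markers the summed TPM of treated library 1 lay between those of treated libraries 2 and 3. It was 14.5 against 13.8 and 17.2, with 28.7 to 55.6 in PBS. The 5 markers of CD8 T cells present went the other way, with a summed TPM of 687, 1863 and 1107 in PBS libraries 1 to 3 and 1903 to 2292 in the treated libraries. Cd8b1, a chain of the sorted antigen, was among them at 315 to 1024 TPM, whereas Cd8a and Cd3e are outside the table. The part that these cell type differences play in the changes below was not tested.

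Most members were lower in the treated libraries and a small set was higher. By the authors' deposited table, lower members numbered 49 of 57 (86.0%), against 57.7% of all table genes, and higher members 8, against 42.3%. The edgeR fit held 53 members, the other 4, Heyl, Inhbb and Sfrp4 among them, having too few reads. It called 17 lower (32.1%) where 20.8% of all fitted genes were called lower, and 4 higher (7.55%) where 16.4% of all fitted genes were called higher. The median log2 change was -2.40 over the fitted members and -0.58 over all fitted genes. With treated library 1 left out, 43 members were called lower and 7 higher, while calls over all fitted genes also became more frequent, at 47.9% lower and 23.7% higher. With PBS library 1, PBS library 3, treated library 2 or treated library 3 left out, edgeR called 0 members and 0 genes of the table, while between 37 and 42 members, and between 4233 and 4904 genes, had an unadjusted p under 0.05. DESeq2 called 56 of the 57 on all libraries, as it did 98.2% of all table genes, and limma-voom called 49, against 75.8% of all fitted genes. An unadjusted p under 0.05 was found for 98.0% of all fitted genes in edgeR, so counts of members by DESeq2 or at an unadjusted p, here and below, are near the background and are not a result about the members.

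No member's treated and PBS libraries overlapped in normalised reads: all 49 lower members lay below every PBS library, as did 57.2% of table genes, and all 8 higher members lay above, as did 42.1%. The table holds only genes that the authors selected as different. In TPM the groups overlapped for Tgfb1 and Wnt10b.

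**Figure D1:**
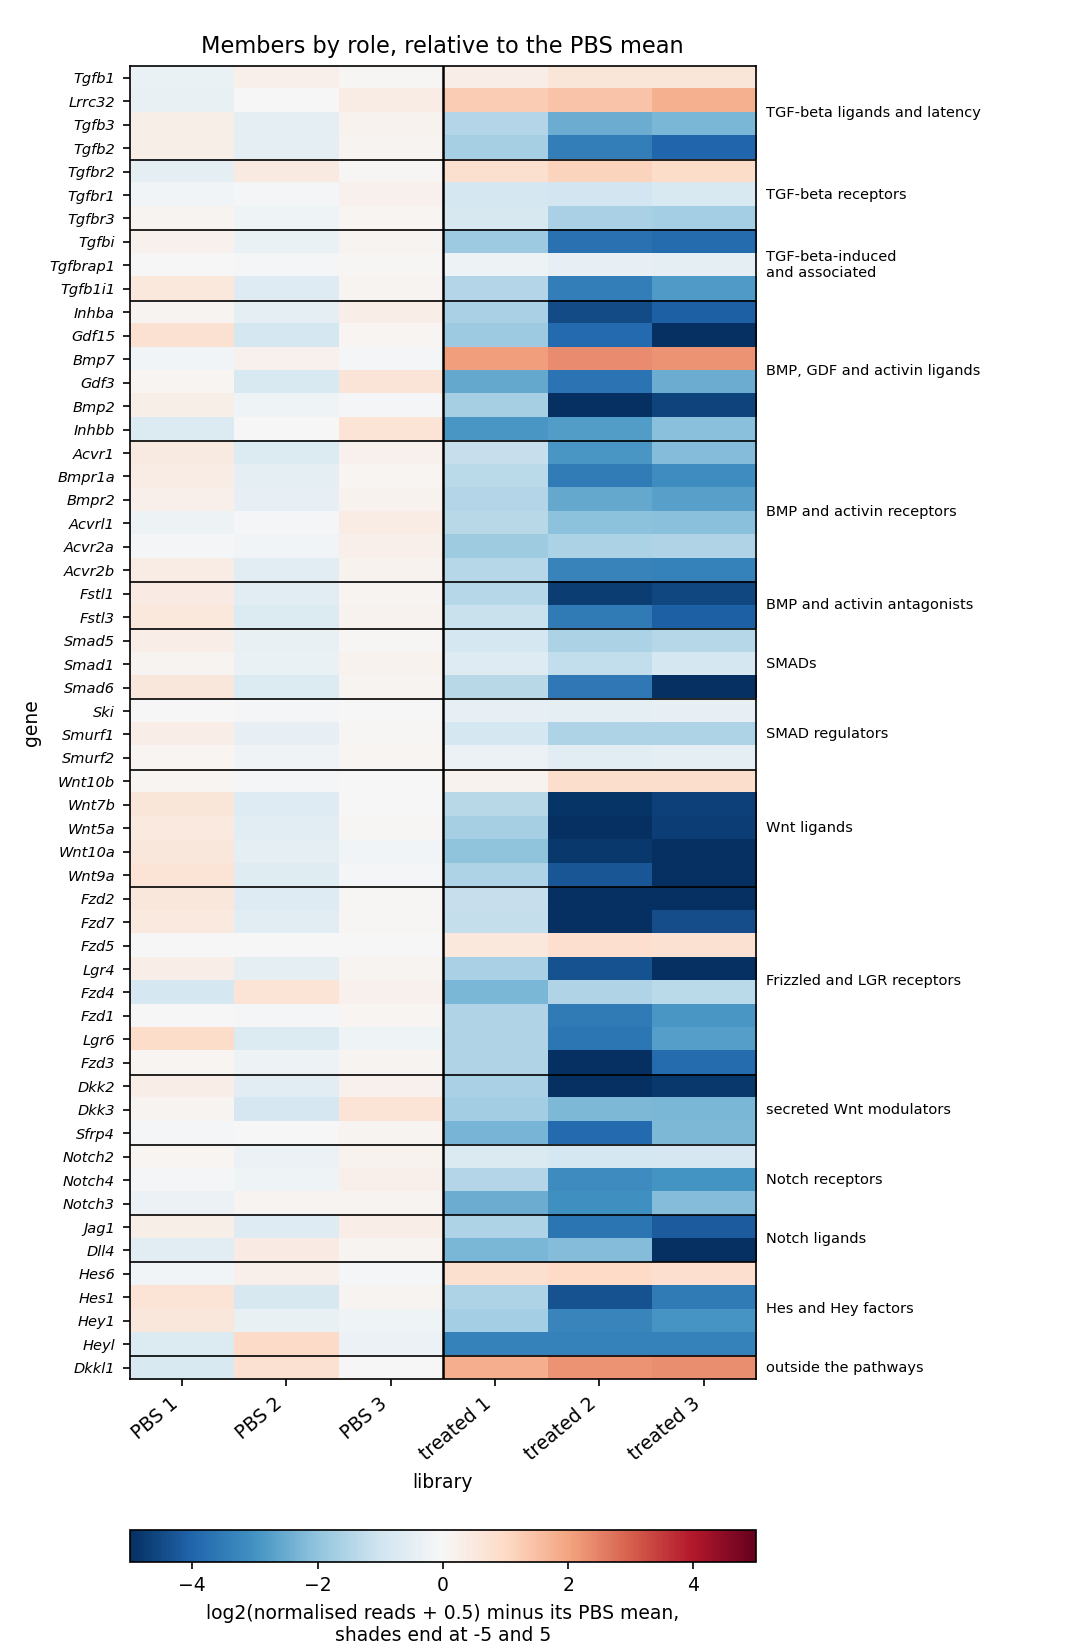
Normalised reads of 56 members in each library, as log2(reads + 0.5) minus the mean of the 3 PBS libraries, in rows grouped by role and ordered by TPM within a role. Blue is lower and red higher than PBS, with shades ending at -5 and 5; the 8 red genes of the treated libraries include Bmp7, Dkkl1 and Lrrc32, and treated library 1 is paler than treated libraries 2 and 3 for most blue genes.

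Promoter windows are shown for a TGF-beta ligand and receptor of each direction, since the ligands Tgfb1 and Tgfb2 and the receptors Tgfbr2 and Tgfbr1 differed in direction within their own families. Each is the 250 bases before a RefSeq transcription start in GRCm38.p6, 5′ to 3′ on the gene's strand, with capitals marking the SMAD core element CAGAC or its complement GTCTG. RefSeq lists 2 starts for Tgfbr1, of which the first in the table is shown. The windows are chr7:25686752-25687001 (plus strand) for Tgfb1, chr1:186705990-186706239 (minus strand) for Tgfb2, chr9:116175364-116175613 (minus strand) for Tgfbr2 and chr4:47352972-47353221 (plus strand) for Tgfbr1.
Tgfb1: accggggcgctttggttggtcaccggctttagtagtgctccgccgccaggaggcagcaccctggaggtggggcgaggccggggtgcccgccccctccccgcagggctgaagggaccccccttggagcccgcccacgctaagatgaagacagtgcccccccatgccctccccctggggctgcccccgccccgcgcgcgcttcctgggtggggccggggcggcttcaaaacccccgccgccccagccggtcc
Tgfb2: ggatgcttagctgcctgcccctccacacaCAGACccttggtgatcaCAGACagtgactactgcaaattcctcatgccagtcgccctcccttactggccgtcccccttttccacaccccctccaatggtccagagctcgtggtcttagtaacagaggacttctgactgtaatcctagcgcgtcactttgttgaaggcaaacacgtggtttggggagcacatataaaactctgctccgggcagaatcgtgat
Tgfbr2: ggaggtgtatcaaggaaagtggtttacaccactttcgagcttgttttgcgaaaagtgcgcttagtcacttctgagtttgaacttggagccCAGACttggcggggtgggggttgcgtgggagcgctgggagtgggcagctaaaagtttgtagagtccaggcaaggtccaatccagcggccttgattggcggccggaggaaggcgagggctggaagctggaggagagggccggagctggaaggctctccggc
Tgfbr1: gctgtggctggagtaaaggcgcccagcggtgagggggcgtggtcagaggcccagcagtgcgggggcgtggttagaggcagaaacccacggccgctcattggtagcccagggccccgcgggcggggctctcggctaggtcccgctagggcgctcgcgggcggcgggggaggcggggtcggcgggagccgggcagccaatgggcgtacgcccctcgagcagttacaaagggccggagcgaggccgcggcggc

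The Tgfb1 and Tgfbr1 windows were rich in G and C, at 75.2% and 74.8% with 21 and 29 CpG dinucleotides, and held no CAGAC on either strand. The Tgfb2 window had 53.6% G and C, 8 CpG and 2 matches, and the Tgfbr2 window had 58.4%, 12 CpG and 1 match. Across all 32851 RefSeq windows of this length the medians were 52.4% and 6 CpG, and 42.2% held the element. Of the 44 windows found for 38 members, 19 held it (43.2%), close to that share. The matches are letters in a window and say nothing of whether a SMAD protein binds there.

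Among the TGF-beta ligands, Tgfb1 was by far the most abundant and was not among the lower genes. It stood at 4074, 6179 and 5318 normalised reads in PBS libraries 1 to 3 and at 6519, 7713 and 7763 in treated libraries 1 to 3. The log2 change was 0.50 (SE 0.18) with an edgeR adjusted p of 0.11. Its levels in TPM overlapped between groups, at 180 to 285 in PBS and 256 to 288 in treated libraries. Tgfb2 and Tgfb3 were both lower. Tgfb3 fell by 2.04 (SE 0.39, edgeR adjusted p = 0.042), from 297, 171 and 273 reads to 87.9, 42.7 and 49.1. Tgfb2 had 30.2 to 50.8 reads under PBS and 2.14 to 12.8 after treatment, a log2 change of -2.74 (SE 0.67) with an adjusted p just above the threshold at 0.0503, and passed at -3.90 without treated library 1. Tgfb1 made up 95.3%, 98.2% and 96.6% of the summed TPM of the 3 ligands in PBS libraries 1 to 3 and 99.1%, 99.6% and 99.6% in the treated ones. These within-library shares, like the ratios below, do not depend on scaling between libraries; the pairs were chosen after their values were seen and were not tested.

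Lrrc32 rose 2.79-fold. It encodes GARP, the surface protein that holds latent TGF-beta on regulatory T cells and platelets. It went from 127, 166 and 215 reads under PBS to 399, 451 and 568 after treatment, which is 1.48 on the log2 scale (SE 0.26; adjusted p = 0.04 by edgeR). Its level remained modest, at a mean of 4.2 TPM in PBS and 9.32 TPM in treated libraries. The 3 markers of regulatory T cells in the table (Il2ra, Ikzf2 and Tnfrsf18) were also higher, with a summed TPM of 130 to 291 in PBS and 318 to 360 in treated libraries; activated CD8+ T cells can express these genes too, and Foxp3 is outside the table.

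The TGF-beta receptors differed in direction. Tgfbr2, the type II receptor that binds the ligand, stood at 2135, 4045 and 3117 reads under PBS and at 5228, 6425 and 5666 after treatment, which is 0.90 on the log2 scale (SE 0.25; adjusted p = 0.062 by edgeR). Tgfbr1, the type I receptor that phosphorylates SMAD2 and SMAD3, fell from 607, 647 and 777 reads to 365, 346 and 392, by 0.88 on the log2 scale (SE 0.14, edgeR adjusted p = 0.04). With median-ratio scaling Tgfbr1 was at -0.46 and no longer passed (edgeR adjusted p = 0.2). Tgfbr3, the co-receptor betaglycan, fell by 1.33 (SE 0.30, edgeR adjusted p = 0.046). The TPM of Tgfbr2 was 4.29, 7.63 and 4.89 times that of Tgfbr1 in PBS libraries 1 to 3 and 17.5, 22.6 and 17.6 times in treated libraries 1 to 3. Without treated library 1 Tgfbr2 passed, at 0.96. Each gene alone separated the groups in TPM, in opposite directions, so the ratio of Tgfbr2 to Tgfbr1 had to separate them and adds no support. In this ratio treated library 1 lay with treated library 3.

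**Figure D2:**
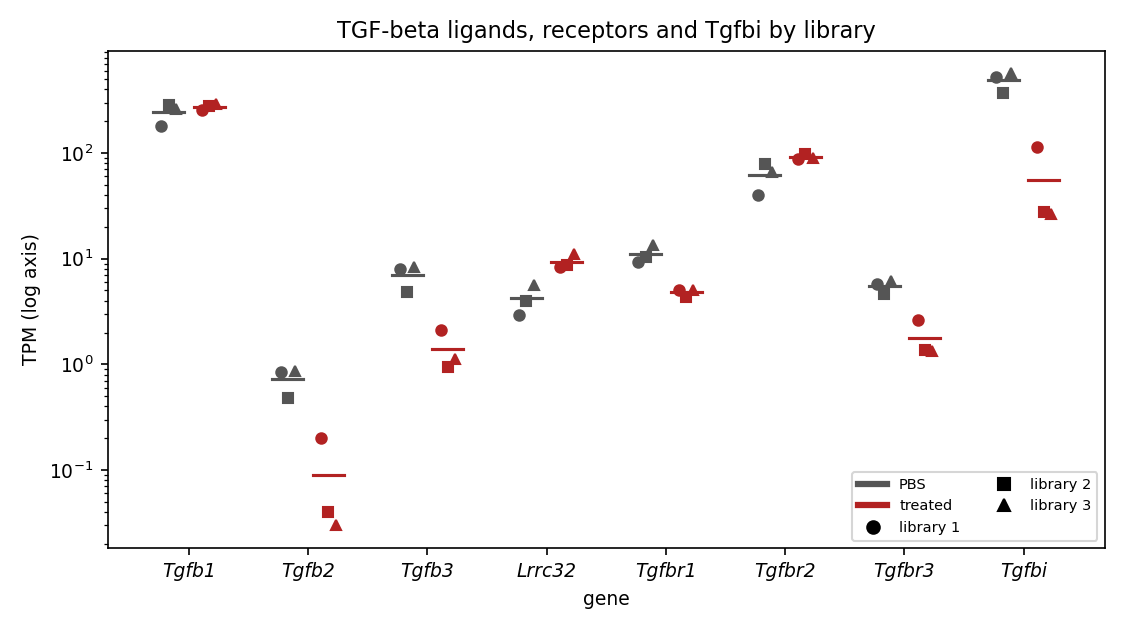
TPM (log axis) of TGF-beta ligands, receptors, Lrrc32 and Tgfbi, with 1 point per library and a bar at the mean of each group. Tgfb1 overlaps between groups, Lrrc32 and Tgfbr2 are higher in the treated libraries, and Tgfb2, Tgfb3, Tgfbr1, Tgfbr3 and Tgfbi are lower.

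Tgfbi had the highest TPM of any member in PBS. It encodes a secreted matrix protein induced by TGF-beta, made by fibroblasts and macrophages. It fell 7.17-fold, from 15114, 10339 and 14690 reads to 3707, 981 and 910.0 (log2 ratio -2.84 with an SE of 0.64, adjusted p = 0.047 by edgeR), and the change was -3.82 without treated library 1. All treated libraries lay below PBS, and treated library 1 was 3.92 times the mean of treated libraries 2 and 3. Tgfb1i1, which encodes the focal adhesion protein Hic-5, stood at a log2 change of -2.41 (SE 0.63, adjusted p = 0.056), and passed at -3.21 without treated library 1. Tgfbrap1, a receptor-associated protein, differed by only -0.38 (SE 0.11, adjusted p = 0.066), at 804, 756 and 829 reads under PBS and 666, 605 and 561 in treated libraries.

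Of the 6 BMP, GDF and activin ligands, 5 were lower and Bmp7, which shapes kidney and bone in development, rose 4.76-fold, the largest ratio among the higher members, from 24.0, 31.2 and 25.0 reads under PBS to 114, 140.1 and 128 after treatment (log2 ratio 2.25 with an SE of 0.26, adjusted p = 0.04 by edgeR). Both groups were tight and far apart, although the level was low, at a mean of 0.703 TPM in PBS and 2.67 TPM in treated libraries. Bmp7 was listed here among stromal members, and the other 28 stromal members of the table were all lower.

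Inhba, which encodes the subunit of activin A, stood at 1994, 1300.1 and 2311 reads under PBS and 594, 81.0 and 106 after treatment, a log2 change of -2.84 (SE 0.85, adjusted p = 0.07). Gdf15, a stress-induced cytokine, stood at 258, 82.8 and 165 reads under PBS and 42.5, 9.85 and 4.27 after treatment (-3.14, SE 0.92, adjusted p = 0.067). Neither passed edgeR's threshold, and in both treated library 1 was the highest of its group. Gdf3 fell from 21.2, 11.7 and 31.8 reads to 2.96, 1.09 and 3.2, a log2 ratio of -3.08 (SE 0.58, adjusted p = 0.041). Bmp2 stood at -3.10 (SE 1.0, adjusted p = 0.08), with 0 reads in treated library 2. Inhbb had 6.46 to 17.3 reads under PBS and at most 2.14 in a treated library. Inhba, Gdf15 and Bmp2 passed without treated library 1, at -4.32, -4.56 and -5.88.

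All 6 BMP and activin receptors were lower, and 3 of them fell. Of all table genes 57.7% were lower, and 20.8% of all fitted genes were called lower. Bmpr2, the type II BMP receptor, fell from 1280.0, 813 and 1225 reads to 387, 183 and 165 (log2 ratio -2.17 with an SE of 0.40, adjusted p = 0.041 by edgeR). Acvrl1, the endothelial type I receptor ALK1, fell from 128, 144 and 199 reads to 58.3, 37.2 and 36.3 (-1.83, SE 0.33, adjusted p = 0.04). Acvr2a, an activin type II receptor, fell by 1.65 (SE 0.24, adjusted p = 0.04). The other type II activin receptor, Acvr2b, stood at -2.45 (SE 0.66, adjusted p = 0.059).

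The most abundant receptors of this family were the type I receptors Acvr1 and Bmpr1a. Acvr1 stood at 550.0, 253 and 465 reads under PBS and 183, 52.5 and 88.7 after treatment (-1.97, SE 0.55, adjusted p = 0.062). Bmpr1a stood at 1047, 590.2 and 861 in PBS and 322, 72.2 and 94.0 after treatment (-2.35, SE 0.64, adjusted p = 0.059). In both, PBS library 2 was the lowest of its group and treated library 1 the highest. The value of treated library 1 was 3.86 times the mean of treated libraries 2 and 3 for Bmpr1a and 1.58 times for Acvrl1, and for Acvr2a it was the lowest of the group. Acvr1, Bmpr1a and Acvr2b passed once treated library 1 was left out, at -2.58, -3.32 and -3.43.

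The secreted antagonists Fstl1 and Fstl3 were lower. EdgeR called 0 of these 2 at an adjusted p under 0.05, both had an unadjusted p under 0.05, and DESeq2 and limma-voom called both, as DESeq2 and the unadjusted test did nearly all table genes. Fstl1, a follistatin-like glycoprotein of mesenchymal cells, stood at 8620.4, 4347 and 7088 reads under PBS and 2394, 239 and 273 in treated libraries. Its log2 change was -2.79 with an SE of 1.02, and treated library 1 was 9.33 times the mean of treated libraries 2 and 3. Fstl3, which binds activins, stood at 518, 223 and 401 reads under PBS and 165, 30.6 and 20.8 after treatment (-2.40, SE 0.88, adjusted p = 0.11). Both passed without treated library 1, Fstl1 at -4.71 and Fstl3 at -3.90.

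Of the SMADs in the table, all of them on the BMP side, Smad5 fell. Smad5, a receptor-activated SMAD, went from 1348, 823 and 1109 reads to 586, 357 and 394 (log2 ratio -1.29 with an SE of 0.27, adjusted p = 0.044 by edgeR). Smad1, of the same kind, stood at 307, 222 and 314 reads under PBS and 179.8, 119 and 151 after treatment (-0.91, SE 0.25, adjusted p = 0.06). Smad6, the inhibitory SMAD of BMP signalling, stood at -2.79 (SE 0.99, adjusted p = 0.099), with 19.5 to 47.1 reads under PBS and 0 in treated library 3. Smad1 at -1.06 and Smad6 at -4.81 passed without treated library 1. Smad2, Smad3, Smad4 and Smad7 are outside the table.

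The 3 SMAD regulators were lower. Ski, a co-repressor that binds SMADs, fell from 3418, 3284 and 3428 reads to 2529, 2457 and 2526, by 0.43 (SE 0.09, edgeR adjusted p = 0.043). Its groups were tight, and its change was -0.18 with TMM scaling and -0.01 with median-ratio scaling, neither of which passed. It was also no longer called without treated library 1, at -0.44. Smurf1, a ubiquitin ligase that targets SMADs and receptors, fell from 2283, 1343 and 1870 reads to 967, 607 and 621, by 1.32 (SE 0.28, adjusted p = 0.044). Smurf2, its relative, stood at -0.43 (SE 0.13, adjusted p = 0.068).

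Of the other TGF-beta and BMP pathway genes listed, 27 of 36 were in the table, 25 of them lower, where 57.7% of all table genes were. EdgeR called 10 lower and 0 higher, where 20.8% and 16.4% of all fitted genes were called. An unadjusted p under 0.05 was found for 27 and DESeq2 called 26, both near the shares of all genes (98.0% and 98.2%). The median log2 change was -2.39, against -0.58 over all fitted genes. The largest reductions were in the matrix proteoglycan gene Dcn (also a fibroblast marker above) at -3.41 (SE 0.99), the BMP co-receptor gene Rgma at -3.27 (SE 1.2) and Ltbp2 at -3.25 (SE 0.96), none of which passed (adjusted p = 0.066, 0.11 and 0.068). Without treated library 1 they stood at -5.18, -5.96 and -4.98 and passed. The 2 higher genes were Id2, a SMAD target also needed by effector T cells, at 1.38 (SE 0.39, adjusted p = 0.062), and Nrros, which anchors latent TGF-beta on myeloid cells, at 0.60 (SE 0.21, adjusted p = 0.09). Without treated library 1 Id2 passed at 1.47, and with scaling on T cell receptor signalling genes Id2 stood at 0.07 and Nrros at -0.83.

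The Wnt ligands were lower except Wnt10b. Wnt10b, a ligand of the beta-catenin branch, was at 367, 324 and 335 reads under PBS and 382, 625 and 628 after treatment (log2 ratio 0.67 with an SE of 0.22, adjusted p = 0.085 by edgeR). Treated library 1 stayed close to PBS and treated libraries 2 and 3 were far above. Wnt7b stood at 273, 114 and 179 reads under PBS and 68.2, 5.47 and 6.41 after treatment (-2.81, SE 1.06, adjusted p = 0.12). Wnt5a, a ligand of the branch that does not use beta-catenin, ran from 178 to 371 reads under PBS and from 6.57 to 82.0 after treatment (-3.06, SE 1.03, adjusted p = 0.0865). Wnt9a stood at -3.05 (SE 1.02, adjusted p = 0.0851) and Wnt10a at -3.39 (SE 0.96, adjusted p = 0.0633). Treated library 1 was the highest of its group for Wnt5a, Wnt7b, Wnt9a and Wnt10a, and without it they stood at -5.07, -4.96, -5.60 and -5.52 and passed, as did Wnt10b at 0.87. EdgeR called 0 of the 5 ligands, all 5 had an unadjusted p under 0.05, DESeq2 called 5 and limma-voom 4, where the shares of all genes were 98.0%, 98.2% and 75.8%. Wnt10b made up 39.0%, 54.6% and 46.3% of the summed TPM of these ligands in PBS libraries 1 to 3 and 74.4%, 98.2% and 98.2% in treated libraries 1 to 3. Its own TPM overlapped between groups, at 12.1 to 13.6 in PBS and 11.9 to 18.4 in treated libraries. The other 4 ligands were lower without overlap, so the share adds no support.

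Of the 8 Frizzled and LGR receptors, which receive Wnt ligands and R-spondins, 1 was higher and 7 were lower. Fzd5 stood at 156, 157 and 153 reads in PBS, the least spread relative to its mean of any higher member, and at 226, 278 and 265 in treated libraries. Its log2 change was 0.72 (SE 0.18), with an adjusted p of 0.05 after rounding that did not pass. Fzd1 fell from 66.4, 65.2 and 72.3 reads to 23.7, 5.47 and 8.55 (-2.41, SE 0.56, edgeR adjusted p = 0.048), and its change was -3.25 without treated library 1. Fzd2 and Fzd7, the receptors with the highest mean TPM over all 6 libraries, spread widely within the treated group. There Fzd5 had the higher mean TPM, at 2.78 against 1.89 for Fzd2 and 0.933 for Fzd7. In treated library 1, however, Fzd2 was above Fzd5, at 5.08 against 2.57 TPM. Fzd2 was at 757, 321 and 528 reads under PBS and 227, 14.2 and 13.9 after treatment (-2.65, SE 1.2, adjusted p = 0.2). Fzd7 was at 467, 228 and 347 in PBS and 146, 9.85 and 15.0 after treatment (-2.60, SE 1.08, adjusted p = 0.15). Lgr4, a receptor for R-spondins, had 87.6 to 150.4 reads under PBS and 3.2 to 38.5 after treatment (-2.95, SE 0.93, adjusted p = 0.0771). Lgr6, of the same kind, stood at -2.57 (SE 0.72, adjusted p = 0.0617) and Fzd3 at -2.85 (SE 0.95, adjusted p = 0.086). Fzd2, Fzd7, Fzd3, Lgr4 and Lgr6 passed when treated library 1 was left out, at -5.24, -4.79, -4.97, -4.80 and -3.38, as did Fzd5 at 0.80. Fzd4 stood at -1.82 (SE 0.52, adjusted p = 0.063). Fzd5 took 6.27% to 11.3% of the summed Fzd TPM in PBS, 23.8% in treated library 1 and 76.7% and 72.6% in treated libraries 2 and 3. Fzd5 separated the groups upward in TPM and every other Fzd member downward. This share therefore had to separate them and adds no support.

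The secreted Wnt modulators in the table are Dkk2, Dkk3 and Sfrp4. Dkk2, which blocks the Wnt co-receptors LRP5 and LRP6, was the most abundant at 1668, 915 and 1536 reads under PBS and 429, 32.8 and 45.9 after treatment (log2 ratio -3.02 with an SE of 1.07, adjusted p = 0.098), and passed at -5.12 without treated library 1. Dkk3, a divergent Dickkopf protein, fell from 19.4, 9.74 and 28.9 reads to 4.94, 3.28 and 3.2 (-2.30, SE 0.53, edgeR adjusted p = 0.047). Sfrp4, a soluble Frizzled-related protein, had 22 reads over the PBS libraries and 2 over the treated ones, 10 times fewer after scaling (95% exact interval 2.46 to 87.7, counting error only).

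Of the other Wnt pathway genes listed, 27 of 42 were in the table, 22 lower and 5 higher. Over all table genes 57.7% were lower and 42.3% higher. EdgeR called 11 lower and 2 higher, where 20.8% and 16.4% of all fitted genes were called. The median log2 change was -1.18, against -0.58 over all fitted genes. The called genes that were higher were Lef1 and Tcf7, the T cell transcription factors that bind beta-catenin. Lef1 rose from 187 ± 59.8 to 673 ± 80.0 reads (SD, n = 3; log2 change 1.85, SE 0.28) and Tcf7 from 1244 ± 191 to 2746 ± 192 (1.14, SE 0.14), both at 0.04 for the adjusted p in edgeR. With scaling on T cell receptor signalling genes neither passed, and Lef1 stood at 0.45 and Tcf7 at -0.32. Rnf43, a ubiquitin ligase that removes Frizzled receptors, stood at 1.18 (SE 0.37, adjusted p = 0.076), or -0.19 with that scaling. The largest reductions were in Apcdd1 at -3.12, Prickle1 at -2.91 and Vangl1 at -2.80, with adjusted p of 0.058, 0.059 and 0.083. These 3 passed without treated library 1, at -4.48, -3.66 and -4.48, as did Rnf43 at 1.35.

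The 3 Notch receptors in the table fell, where 20.8% of all fitted genes were called lower. Notch2, which is expressed by T cells and myeloid cells, was the most abundant and fell the least, from 2968, 2299 and 3160 reads to 1709, 1504 and 1538 (log2 ratio -0.83 with an SE of 0.15, adjusted p = 0.04 by edgeR). With median-ratio scaling Notch2 was at -0.41 and did not pass (edgeR adjusted p = 0.17). Notch3, the receptor of pericytes and smooth muscle, fell from 33.2, 44.8 and 44.3 reads to 6.92, 4.38 and 8.55 (-2.60, SE 0.35, adjusted p = 0.04). Notch4, the endothelial receptor, fell from 152, 136 and 189 reads to 56.3, 17.5 and 19.2 (-2.35, SE 0.54, adjusted p = 0.047), and its log2 ratio was -3.11 without treated library 1. Notch1 is outside the table.

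Both Notch ligands in the table were lower without passing edgeR's threshold. Jag1 stood at 483, 251 and 492 reads under PBS and 132, 30.6 and 21.4 after treatment (-2.73, SE 0.78, adjusted p = 0.065). Dll4, the ligand of sprouting endothelium, stood at 11.1, 22.4 and 18.3 reads under PBS and 2.96, 3.28 and 0 after treatment (-2.97, SE 0.75, adjusted p = 0.052). EdgeR called 0 of these ligands, both had an unadjusted p under 0.05, and DESeq2 and limma-voom called 2, which is again the rate of nearly all table genes for the unadjusted p and DESeq2. Jag1 was highest in treated library 1, whereas Dll4 was highest in treated library 2. Both passed without treated library 1, Jag1 at -3.97 and Dll4 at -3.31.

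The Hes and Hey transcriptional repressors split. Hes1, the classic Notch target, stood at 438, 159 and 303 reads under PBS and 94.8, 13.1 and 23.5 after treatment (log2 ratio -2.77 with an SE of 0.84, adjusted p = 0.072 by edgeR), and passed at -4.02 without treated library 1. Hey1, another Notch target, fell from 55.4, 28.2 and 31.8 reads to 10.9, 3.28 and 4.27 (-2.61, SE 0.56, adjusted p = 0.044), and its log2 ratio was -3.31 without treated library 1. Heyl had 17 reads over the PBS libraries and 0 over the treated ones, at least 5.2-fold lower when 3 counts over the treated group are taken as the floor.

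Hes6, which is known to oppose Hes1, rose from 216, 285 and 223 reads to 419, 474 and 424, which is 0.86 on the log2 scale (SE 0.17; adjusted p = 0.042 by edgeR). The TPM of Hes6 was 0.536, 1.97 and 0.812 times that of Hes1 in PBS libraries 1 to 3, and 4.84, 40.2 and 18.8 times in treated libraries 1 to 3. Hes6 and Hes1 each separated the groups in TPM, in opposite directions, so this ratio could not overlap between them. It varied widely within each group. Over all 6 libraries Hes6 ran from 216 to 474 reads and Hes1 from 13.1 to 438.

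Of the other Notch pathway genes listed, 19 of 29 were in the table, at a median log2 change of -0.34. Of these, 8 were higher and 11 lower, close to the split of all table genes (42.3% and 57.7%). EdgeR called 3 higher and 5 lower, where 16.4% and 20.8% of all fitted genes were called. These counts are near the background. Mfng, a glycosyltransferase that modifies Notch receptors, rose from 595 ± 287 to 1682 ± 197 reads (SD, n = 3; 1.5, SE 0.36, adjusted p = 0.049), and Psen2, a subunit of the protease that cleaves Notch, by 0.74 (SE 0.17, adjusted p = 0.046). Lfng, a second such transferase, stood at 1.02 (SE 0.31, adjusted p = 0.071). With scaling on T cell receptor signalling genes Mfng stood at 0.17, Psen2 at -0.72 and Lfng at -0.35, none of which passed. Maml3, a co-activator of the Notch complex, fell by 1.97 (SE 0.39, adjusted p = 0.043) and Dtx4, a Deltex ubiquitin ligase, fell by 1.87 (SE 0.40, adjusted p = 0.045). Aph1b stood at -1.54 (SE 0.49, adjusted p = 0.075). Without treated library 1 Aph1b passed at -2.15 and Lfng at 1.12.

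Dkkl1, the gene outside the pathways, rose from 122.7, 349 and 208 reads to 739, 993 and 1051, which is 2.03 on the log2 scale (SE 0.41; adjusted p = 0.043 by edgeR). At a mean of 102.5 TPM in the treated libraries it was exceeded in TPM there by Tgfb1 alone among members. Its order within the PBS group, lowest in PBS library 1 and highest in PBS library 2, was that of the CD8 T cell markers.

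**Figure D3:**
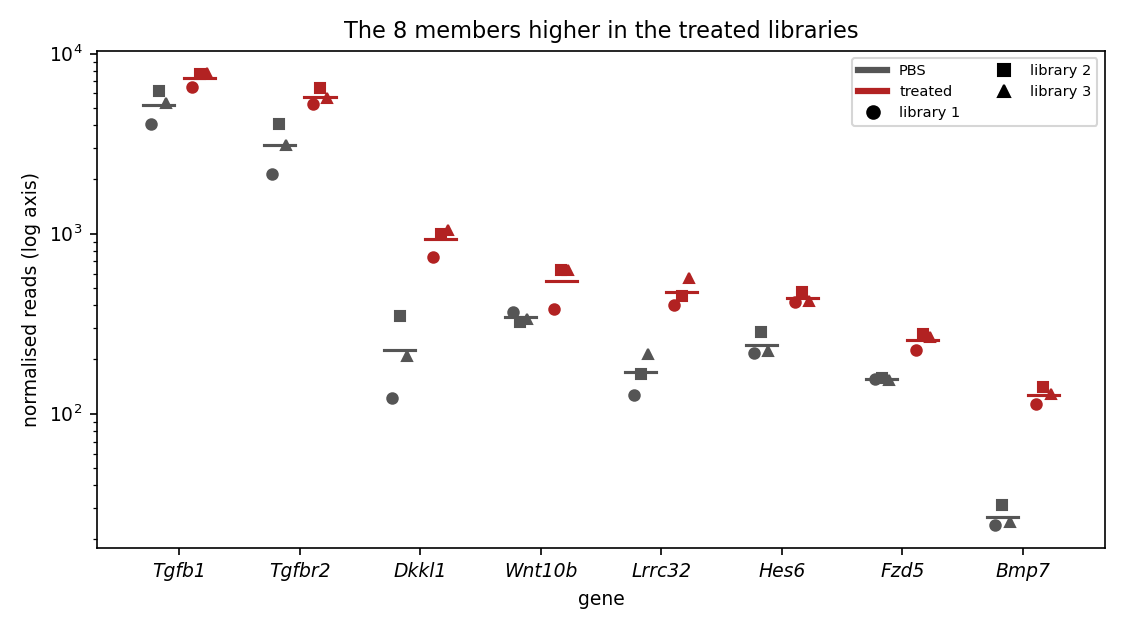
Normalised reads (log axis) of the 8 members that were higher in the treated libraries, with 1 point per library and a bar at each group's mean. Treated library 1 (red circle) is the lowest treated point for all 8 genes, and Bmp7 and Dkkl1 show the widest gap between groups.

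Members known in T cells lay nearer to 0 than members known in stroma; this contrast is a description of 2 lists and was not tested. Of 13 members listed as T cell genes, 7 were in the table: Tgfb1 and Tgfbr2 higher, and Tgfbr1, Notch2, Ski, Smurf1 and Smurf2 lower. EdgeR called 4 of them lower and 0 higher, where 20.8% and 16.4% of all fitted genes were called. All 7 had an unadjusted p under 0.05, DESeq2 called 6 and limma-voom 5, where the shares of all genes were 98.0%, 98.2% and 75.8%. Their median log2 change was -0.43. Of 55 listed as stromal, 29 were in the table, 28 of them lower, with a median of -2.61 over the 25 fitted. EdgeR called 8 of these lower and 1 higher, where 20.8% and 16.4% of all fitted genes were called. The 20 members in neither list, Dkkl1 apart, were also mostly lower (16 of 20). Their median was -2.07, with 5 called lower and 2 higher. These call counts are near the shares of all fitted genes (20.8% and 16.4%). The median of all fitted genes was -0.58. In the authors' deposited table the medians over all T cell and all stromal members were -0.43 and -2.73. Without treated library 1 the stromal median was -3.82 with 26 called, and the T cell median -0.51 with 4 called. In that setting 47.9% of all fitted genes were called lower and 23.7% higher. The summed TPM of the stromal members was 924, 592 and 952 in PBS libraries 1 to 3 and 215, 42.7 and 43.3 in treated libraries 1 to 3, of which Tgfbi made up 52.8% to 64.9%. The summed TPM of the T cell members was 366 to 489 in PBS and 425 to 446 in treated libraries, and overlapped. Tgfb1, at 180 to 285 TPM in PBS and 256 to 288 in treated libraries, was the largest part of this sum. It was the only T cell member whose own TPM overlapped between the groups.

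The direction of the higher members depended on the scaling. With scaling on 19 T cell receptor signalling genes, each of them a gene that the authors' deposited table gives as higher, Bmp7 at 0.77 and Dkkl1 at 0.72 were the members still above 0. Lrrc32 stood at 0.00, Tgfbr2 at -0.50, Hes6 at -0.62, Fzd5 at -0.83, Wnt10b at -0.93 and Tgfb1 at -0.96, all of which had been positive with the authors' scaling. With this scaling edgeR called 0 members higher, against 0.559% of all fitted genes, and 30 lower, against 43.0%; 47 members had an unadjusted p under 0.05, as did 4580 of the 6261 fitted genes. Under it the median of all fitted genes moved from -0.58 to -2.15, that of the T cell members to -2.0 and that of the stromal members to -4.23.

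**Figure D4:**
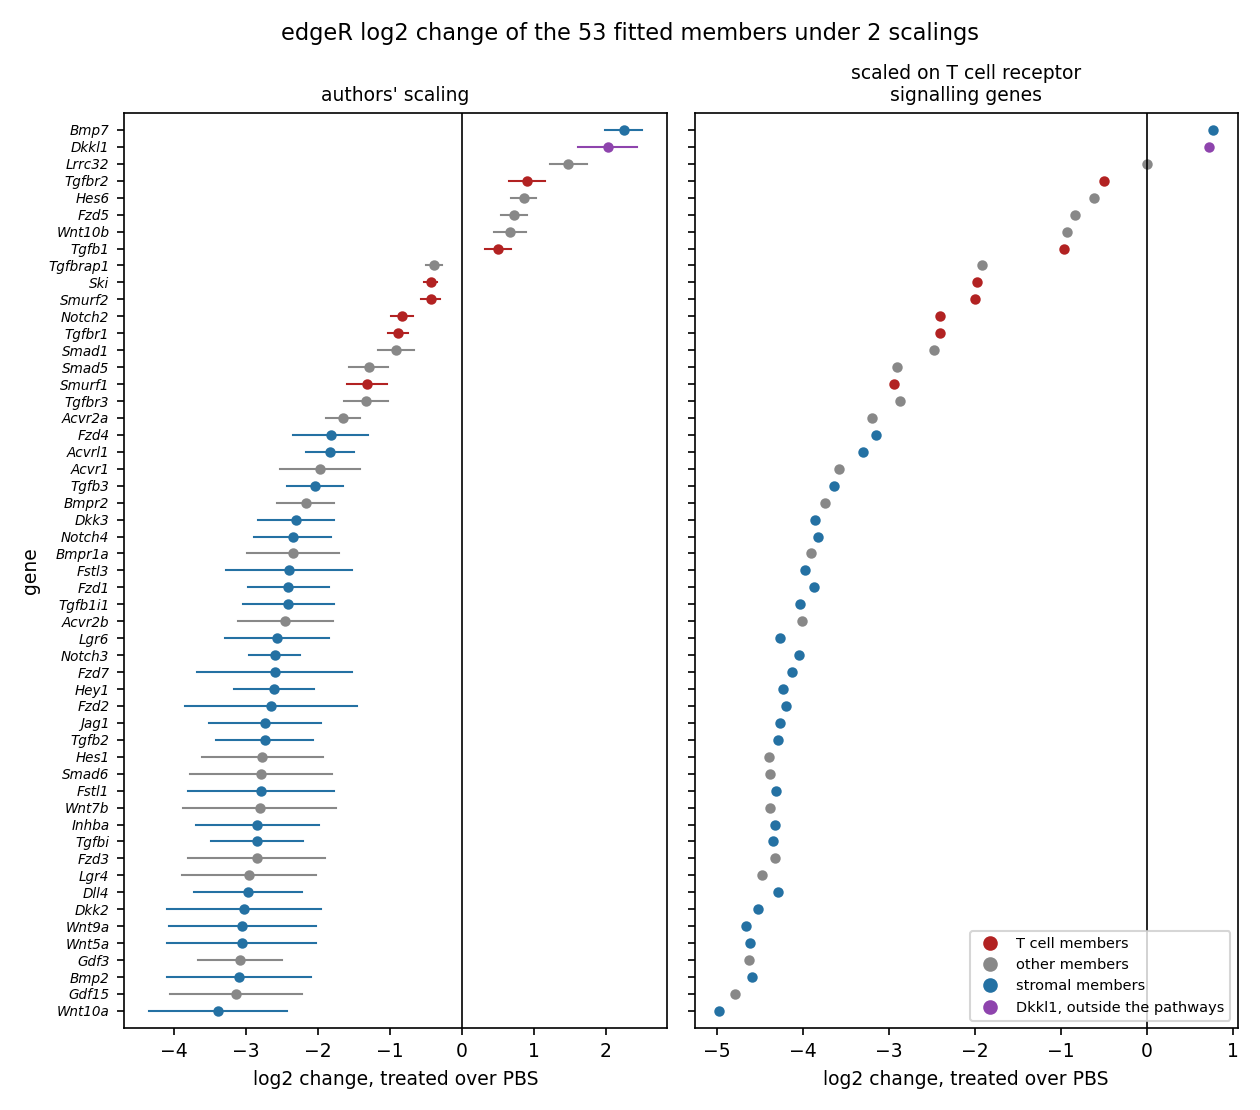
edgeR log2 change of the 53 fitted members, with the authors' scaling (left, bars show 1 SE) and with libraries scaled on T cell receptor signalling genes (right, no error drawn). With the first, 8 members lie above 0; with the second, Bmp7 and Dkkl1 do and Lrrc32 is at 0.00.

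The members also differed in how they varied within a group. Treated library 1 was the highest treated library for 40 of the 49 lower members and the lowest for all 8 higher members. Its ratio to the mean of treated libraries 2 and 3 had a median of 3.17 over the stromal members, 1.02 over the T cell members and 1.08 over all table genes, against 7.72 for the 10 fibroblast markers other than Thy1, 3.0 for macrophage markers and 1.70 for endothelial markers. For 17 members it was above 5, with Fzd2 at 15.6, Bmp2 at 11.9, Fzd7 at 11.4, Dkk2 at 10.8 and Wnt7b at 10.7. Members that kept close to 1 included Notch3 at 1.07 and Tgfbr1 at 0.988, and Fzd4 was lower in treated library 1, at 0.55. Leaving treated library 1 out moved the fold change of 27 of the 53 fitted members by over 1.5 times, a count not made over all genes. Then 28 fitted members, 25 of them lower, passed that had not on all libraries. Calls over all fitted genes became more frequent too, from 20.8% to 47.9% lower and from 16.4% to 23.7% higher. The members named with their ratios here were picked after their values were seen.

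PBS library 2 was the lowest PBS library for 40 of the 49 lower members and the highest for 4 of them, Fzd4, Dll4, Heyl and Notch3. Fzd4 had 26.8, 79.9 and 58.8 reads in PBS libraries 1 to 3, and Heyl 2.77, 9.74 and 3.85. This order, lowest in library 1, was also that of Dll4 and Notch3, and Notch3 had nearly equal values in PBS libraries 2 and 3. Of the receptors described above as endothelial, Notch4 was lowest in PBS library 2. Acvrl1 was lowest in PBS library 1 and highest in PBS library 3. Over 9 endothelial markers PBS library 2 was the lowest for 0, and its ratio to the mean of the other PBS libraries had a median of 1.49; over fibroblast markers other than Thy1 it was the lowest for 8 of 10, with a median of 0.573. Among the higher members, 6 of 8 were highest in PBS library 2, as was the summed TPM of the CD8 T cell markers, whose median ratio was 2.08.

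**Figure D5:**
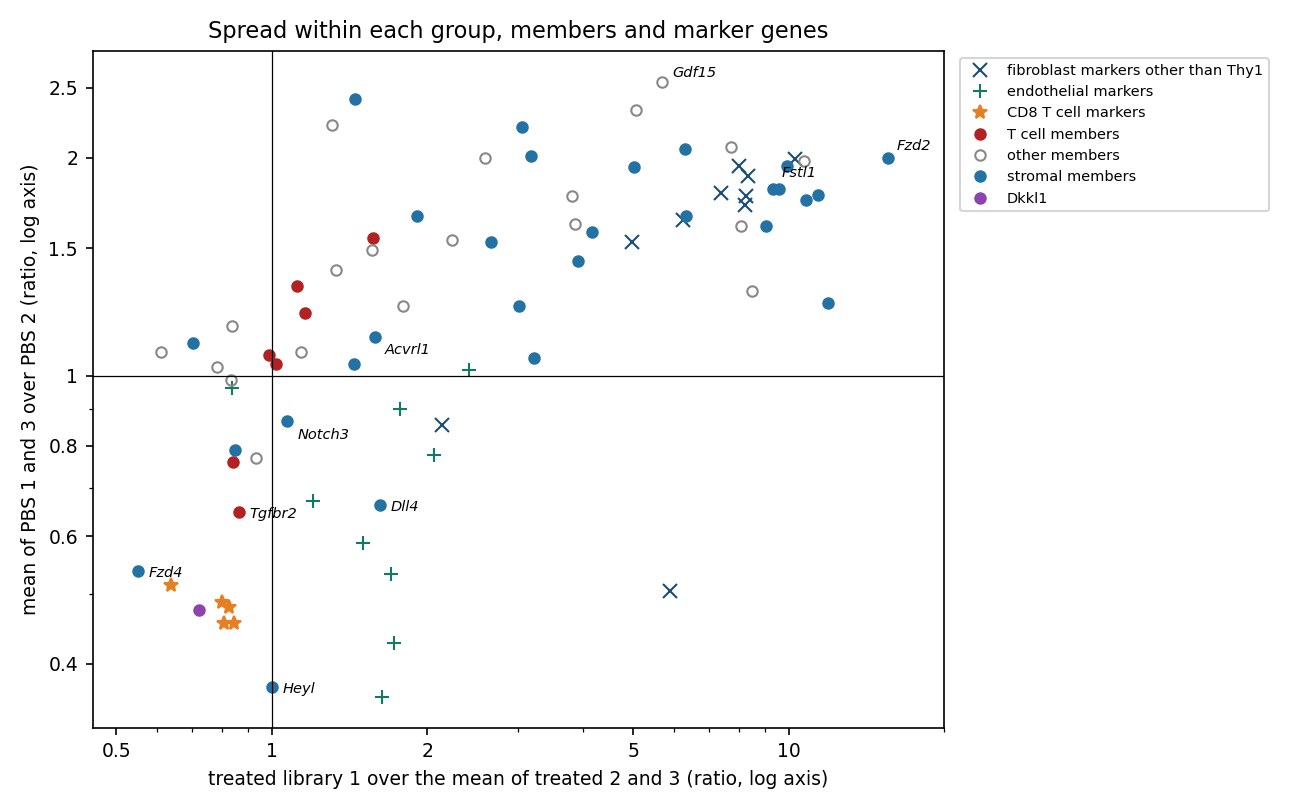
Ratio of treated library 1 to the mean of treated libraries 2 and 3 (horizontal, log axis) against the ratio of the mean of PBS libraries 1 and 3 to PBS library 2 (vertical, log axis), from normalised reads + 0.5. Most stromal members and fibroblast markers lie at the upper right, and Dkkl1 and Fzd4 lie by the CD8 T cell markers at the lower left. Dll4, Heyl and Notch3 lie below 1 on the vertical axis, as most endothelial markers do. The endothelial receptors Notch4 and Acvrl1 lie above 1, at 1.25 and 1.13.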

How the data were processed

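One deposited table gives each gene's values in all 6 libraries. Read counts are the authors' estimated counts, unscaled, per the file headers. The authors also computed the TPM values. Its log2 fold change, p-value and q-value of treated over PBS come from the authors, whose test the sources do not name. The submitters' processing notes list HISAT2 and RSEM, without roles or versions. No genome build was named, so coordinates are printed for RefSeq promoter windows alone.

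The q-values came back from the deposited p-values for 100.0% of genes within 1e-06 when Benjamini-Hochberg was run over 17077 genes. Size factors were recovered from the log2 changes of 3105 genes with over 200 reads in every library (median residual 9.9e-05). After rounding, counts went into edgeR 4.0.16 under R 4.3.3, with filterByExpr and a two-sided robust quasi-likelihood test on group alone (6261 genes, biological coefficient of variation 0.366), adjusted by Benjamini-Hochberg over 17077 genes. The SE is the log2 change divided by the square root of F. Alternatives were TMM, median-ratio and T cell receptor gene scaling, no filter, DESeq2 1.42.0, limma-voom 3.58.1, adjustment over the fitted genes, a replicate block, each library left out, and log2(TPM + 1) or log2(TPM + 0.1). The fit was tested on simulated data. Members match RefSeq by gene identifier (57 of 57).

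The members, lists and tests were chosen with earlier results of these data known. By rule, library values are given for 38 members: those higher in the deposited table, the 2 highest in mean TPM of each role, and the 10 largest called falls; from each pathway list the 3 largest changes in each direction are named. Library values of other members were chosen after they were seen. Values of 1 member are not reported here; it stays in the counts over all members.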

Additional observations from a re-analysis of the deposited data

How the results depend on the processing

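The number of members called lower, 17 with the authors' scaling, was 27 with median-ratio scaling, 30 when scaled on T cell receptor signalling genes, 43 with limma-voom, 43 when adjusted over the fitted genes only and 49 with DESeq2. The number called higher, 4, was 7 with median-ratio scaling, 0 when scaled on T cell receptor signalling genes, 7 with DESeq2 and 8 when adjusted over the fitted genes only. With 1 library left out, the counts ran from 0 to 43 lower and from 0 to 7 higher; leaving out PBS library 1 or 3 or treated library 2 or 3 ended all 21 calls, with 41, 37, 42 and 41 members at an unadjusted p under 0.05, and with 5 libraries fewer degrees of freedom remain. Over all fitted genes edgeR with the authors' scaling called 1304 lower and 1029 higher, TMM 1233 and 1956, median-ratio scaling 1715 and 2263, and the T cell receptor scaling 2694 and 35. The medians of these 4 scalings were -0.58, -0.32, -0.16 and -2.15. Limma-voom called 2862 genes lower and 1885 higher, adjustment over the fitted genes only 3475 and 2649, and DESeq2 3674 and 2677. The larger member counts of these 3 settings therefore came with more calls over all genes. The median of the T cell members, -0.43, moved to -0.18 with TMM, -0.02 with median-ratio scaling, -2.0 with T cell receptor scaling, -0.73 in log2(TPM + 1) and -0.74 in log2(TPM + 0.1), and ran from -0.52 to -0.42 with a library left out. The median of the stromal members, -2.61, moved to -4.23 with T cell receptor scaling and -1.40 in log2(TPM + 1), and ran from -3.82 to -2.32 with a library left out. Signs reversed for Fzd5 (-0.83), Hes6 (-0.62), Tgfb1 (-0.96), Tgfbr2 (-0.50) and Wnt10b (-0.93) with T cell receptor scaling, where Lrrc32 stood at 0.00. With median-ratio scaling the sign reversed for Tgfbrap1 (0.03). The cause of these differences was not tested. With the replicate block the counts were 38 lower and 5 higher, and over all fitted genes 2608 lower and 1743 higher. Same-numbered libraries correlated at 0.60, 0.60 and -0.24 in their deviations from the group means. The labels state no pairing. With 3 libraries per group these correlations cannot decide whether the numbers pair the samples. Without PBS library 2 the counts were 14 lower and 5 higher, and without treated library 1 Ski was no longer called. Members with under 20 reads in PBS are limited by depth.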
